A study of Homo sapiens with 4 samples.

Results

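Transcripts of the mitochondrial respiratory chain were measured by RNA-seq in A375, an established line of human melanoma with a BRAF mutation that keeps this kinase active. The set was a fixed list of 46 genes out of 62649 in the count files: the 13 mRNAs encoded by mitochondrial DNA (names that start with MT-) and 33 nuclear genes of complexes I to IV, cytochrome c and ATP synthase. All 46 matched exactly 1 gene identifier and passed the filter on low counts, as members of the 24961 genes tested. Parental A375 cells served as the control (2 libraries), and the other 2 libraries came from a vemurafenib-resistant derivative. Vemurafenib blocks mutant BRAF, and its concentration had been raised weekly from 0.1 to 6.4 µM. Both lines grew in RPMI-1640 with fetal bovine serum, and the protocol speaks of harvest after drug treatment. The labels of these libraries name no agent at harvest, so whether vemurafenib was still in the medium is not given in the sources used here. They do not say either whether the resistant line was a clone or whether the 2 libraries of a group were separate cultures, so p-values reflect only how far these libraries differ, and that spread may be technical.

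Counts assigned to genes totalled between 68022689 and 87178097 per library. Each count of control replicate 1 was even, so its independent reads may be fewer than its total. The neural crest markers SOX10 (704 to 1149 CPM, counts scaled to a common library size) and ERBB3 (304 to 432 CPM) were high in the 4 libraries. The pigment enzyme genes TYR and DCT were under 0.3 CPM. Summed over all 8 melanoma and neural crest markers, the list reached 1065 to 1632 CPM, most of it from SOX10 and ERBB3, so the others were much lower. Of the 8 melanoma and neural crest markers, 6 had negative log2 fold changes, resistant over control, and the median was -0.25. Among those with a mean of at least 5 CPM, MITF was lowest (-0.86) and ERBB3 highest (0.11). Neither edgeR nor DESeq2 called any of the 8, and 1 fell below 0.05 by edgeR before adjustment. Summed over each list, the 6 fibroblast markers reached 11.6 to 15.3 CPM, the 4 leukocyte markers 0.335 to 1.40 CPM, and the 5 keratinocyte markers 49.2 to 89.7 CPM, of which KRT10 alone gave 47.5 to 89.1 CPM. One keratinocyte marker, KRT14, was called lower in resistant cells, with 1.62 and 2.08 CPM in the controls against 0.309 and 0.314 in the resistant libraries (edgeR adjusted p = 0.0355), and DESeq2 called it too. Among the fibroblast markers LUM had 2.18 and 1.43 CPM in the controls against 0.366 and 0.145 in the resistant libraries (edgeR adjusted p = 0.0569, DESeq2 adjusted p = 1.72e-04), and PDGFRA was the other with an unadjusted edgeR p under 0.05 (log2 -0.83). COL1A1, the only fibroblast marker with a mean of at least 5 CPM, had a log2 fold change of 0.28. The part of these markers in the results was not tested.

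The respiratory chain passes electrons from NADH and succinate through complexes I and II, ubiquinone, complex III, cytochrome c and complex IV to oxygen, and ATP synthase uses the proton gradient that this builds. Mitochondrial DNA encodes core membrane subunits of each of these complexes except complex II, and the nucleus encodes all other subunits, so that complexes I, III, IV and ATP synthase are assembled from the products of both genomes. The mitochondrial mRNAs are cut out of long transcripts that span most of the circular genome. In melanoma, the coactivator PPARGC1A is known to raise respiratory gene expression, and cells under BRAF inhibition are known to lean on respiration more than untreated cells.

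None of the 46 genes passed edgeR's quasi-likelihood test at a Benjamini-Hochberg adjusted p under 0.05, where 1.09% of all genes tested did. One member, UQCRC1, had an unadjusted edgeR p under 0.05 (13.5% of all genes did), and DESeq2 called the same gene and no other member (4.86% of the genes it adjusted). Adjusted p-values of the 46 genes ran from 0.119 to 0.997. The log2 fold changes, resistant over control, lay between -0.89 for UQCRC1 and 0.38 for CYCS, with standard errors from 0.16 to 0.29, and their median was -0.10 beside 0.01 over all genes tested. The 13 mitochondrial mRNAs had a median of -0.17, with 11 of 13 negative, and the 33 nuclear genes one of -0.04, with 19 of 33 negative. Leaving out 1 library moved these medians: the mitochondrial one was -0.31 when control replicate 2 was dropped and -0.06 when control replicate 1 was, and the nuclear one from -0.21 to 0.13 in the same order. A missed threshold does not show that the levels were alike.

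**Figure D1:**
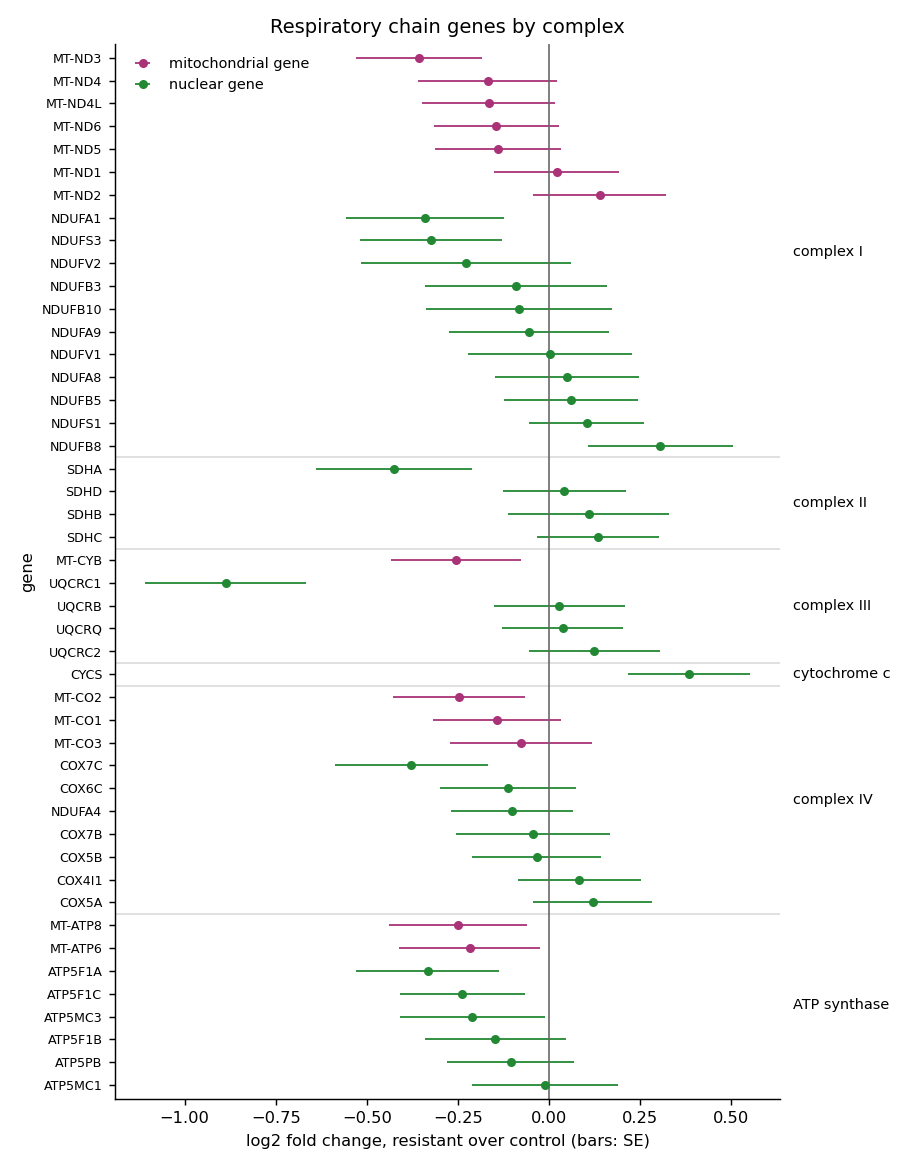
Log2 fold changes (x axis, resistant over control) of the 46 respiratory chain genes (y axis), grouped by complex, with bars of 1 SE from the edgeR fit of 2 libraries per group. Values lie between -0.89 for UQCRC1 and 0.38 for CYCS, and none passed the adjusted test.

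The libraries were selected for poly(A) tails, which most mitochondrial mRNAs carry and which finish the stop codon of several of them. By their lengths in the count files, 6 of the 13 end in part of a codon, MT-ND1 with 2 bases of it and MT-ND2, MT-ND3, MT-ND4, MT-CYB and MT-CO3 with 1 base. The last 24 bases are shown for 4 of them, MT-ND1, MT-ND2, MT-ND3 and MT-CYB. Their shares of the mitochondrial pool, described below, did not overlap between the groups, which was not tested. Capitals mark the bases that the tail completes to a stop codon, and positions are on the mitochondrial chromosome of GRCh38, plus strand (sequences from GENCODE release 29).
MT-ND1, chrM:4239-4262: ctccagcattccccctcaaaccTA
MT-ND2, chrM:5488-5511: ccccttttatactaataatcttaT
MT-ND3, chrM:10381-10404: aaaaaggattagactgaaccgaaT
MT-CYB, chrM:15864-15887: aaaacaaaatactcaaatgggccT
The reading frames of MT-ATP8 and MT-ATP6 overlap by 46 bases, where capitals mark the start codon of MT-ATP6 and the stop codon of MT-ATP8. Reads that touch 2 genes were left out of the counts, so these bases, 22.2% of MT-ATP8 and most of the 6.90% of MT-ATP6 that is shared, gave neither gene a count.
MT-ATP8 and MT-ATP6, chrM:8527-8572: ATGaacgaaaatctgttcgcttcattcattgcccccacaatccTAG
MT-ND4L and MT-ND4 share 7 bases. MT-ND6 is the only mRNA of the other strand and is known to lack a poly(A) tail, so its level here is not comparable with those of the others. Moreover, as reads were counted without regard to strand, its counts cannot be told apart from antisense transcripts of the long heavy-strand RNA.

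Per kilobase of gene, MT-CO1 and MT-CO2, core subunits of complex IV, were the highest of the 13 in each library. MT-CO1 had 7462 and 6485 CPM per kilobase in control replicates 1 and 2 and 6349 and 6276 in resistant replicates 1 and 2, and MT-CO2 had 7425, 6265, 5949 and 5584 in the same order. MT-CO1 was the higher of the 2 in each library, a difference that was not tested. MT-ND6 aside (2219 in the control mean), MT-ND3 was the lowest, with 2060 and 1803 CPM per kilobase in the controls against 1548 and 1467 in the resistant libraries. In the control means MT-ND5, MT-CYB, MT-ND2, MT-ATP6, MT-ATP8 and MT-ND1 followed between 2356 and 2769, with neighbours closer to each other than the 2 controls were. MT-ND4L (3886), MT-CO3 (4656) and MT-ND4 (5655) came between these and MT-CO2.

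Complex I holds 7 of the mitochondrial products, which form its proton-pumping membrane arm. MT-ND3 had the lowest fold change of the 13 mRNAs. It had 713 and 624 CPM in control replicates 1 and 2 and 536 and 508 in resistant replicates 1 and 2. Both resistant libraries were lower than both controls (log2 -0.36 ± 0.17 SE, edgeR adjusted p = 0.438). MT-ND2, at the other end of the range, had 2875 and 2363 CPM in the controls against 2894 and 2871 in the resistant libraries (log2 0.14 ± 0.18, edgeR adjusted p = 0.824). The resistant libraries matched the higher control. MT-ND1 had 2727 and 2569 CPM in the controls against 2616 and 2754 in the resistant libraries, and the groups overlapped.

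The other 4 mitochondrial complex I mRNAs had log2 fold changes from -0.17 to -0.14, each with a standard error larger than the change. MT-ND4 had 8728 and 6857 CPM in the controls against 6915 and 6951 in the resistant libraries. MT-ND4L, which shares its message with MT-ND4, had 1274, 1034, 1026 and 1031 CPM in the same order. For both, control replicate 1 stood above the other 3 libraries, which lay close together. MT-ND5 had 4448 and 4090.1 CPM in the controls against 3797 and 3949 in the resistant libraries. MT-ND6 had 1224, 1106, 1034 and 1073 CPM in that order, and for both genes each resistant library was below each control.

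In complex III the single mitochondrial product is cytochrome b, which carries both quinone sites. MT-CYB had 2876 and 2593 CPM in the controls against 2437 and 2145 in the resistant libraries, so the groups did not overlap (log2 -0.26 ± 0.18, edgeR adjusted p = 0.617). In complex IV, MT-CO1 and MT-CO2 hold the copper and haem centres and MT-CO3 completes the core. MT-CO1 had 11506 and 9999 CPM in the controls against 9790.0 and 9677 in the resistant libraries. MT-CO2 had 5079, 4285, 4069 and 3819 CPM in the same order. Both were lower in each resistant library than in each control, by margins smaller than the gap between the controls. MT-CO3 had 3978, 3323, 3802 and 3118 CPM in that order and overlapped. In ATP synthase, MT-ATP6 forms the proton channel with the c ring. It had 2043 and 1656 CPM in the controls against 1718 and 1462 in the resistant libraries, and MT-ATP8, its small partner in the membrane part, had 623, 520, 524 and 437. Both overlapped between the groups.

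Each resistant library was below each control for 7 of the 13 mitochondrial mRNAs (MT-ND3, MT-ND4L, MT-ND5, MT-ND6, MT-CYB, MT-CO1 and MT-CO2), and none of the 13 lay above. Over all genes tested this held for 22.2% in the lower direction and 22.4% in the higher. Of the 33 nuclear members, 6 were lower and 4 higher in this sense. These counts rest on TMM scaling: as shares of library totals, MT-ND4L and MT-CO1 overlapped between the groups. The 13 mRNAs come from shared transcripts, so they are not independent counts. Of all reads assigned to genes, the 13 took 4.76% and 4.07% in the controls against 4.30% and 3.86% in the resistant libraries, and the groups overlapped. Wilson intervals (95%) are given for shares below. They treat counts as independent, which they were not, since mates were counted singly and the counts of control replicate 1 are all even, so they are too narrow even for counting error. The mitochondrial ribosomal RNAs, which a poly(A) selection captures in part, were MT-RNR1 with 1286, 966, 1370.3 and 1168 CPM and MT-RNR2 with 7880, 7235, 7352 and 8552 CPM in control replicates 1 and 2 and resistant replicates 1 and 2. Neither passed the test (log2 0.17 and 0.07, edgeR adjusted p = 0.800 and 0.922).

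**Figure D2:**
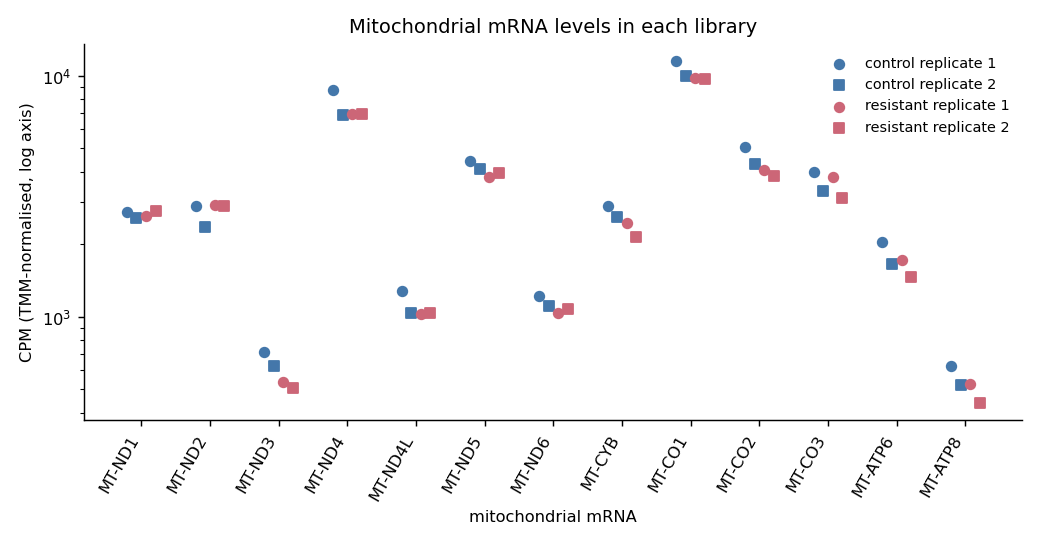
Levels of the 13 mitochondrial mRNAs (x axis) in TMM-normalised CPM (y axis, log scale), with 1 point per library. MT-ND3, MT-ND4L, MT-ND5, MT-ND6, MT-CYB, MT-CO1 and MT-CO2 are lower in both resistant libraries than in both controls, and the others overlap.

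As a share of the mitochondrial mRNA pool, which does not depend on how libraries were scaled to each other, 5 of the 13 messages did not overlap between the groups, 2 higher and 3 lower. By level, 22.4% of all genes tested lay apart in the higher and 22.2% in the lower direction, so a count of 5 is no result about these messages. MT-ND2 made up 5.98% and 5.76% of the pool in the controls against 7.03% and 7.22% in the resistant libraries, a ratio of 1.21 of the group means. MT-ND1 had 5.67% and 6.26% in the controls against 6.36% and 6.92% in the resistant libraries (ratio 1.11). For MT-ND1 the groups were separated by less than the spread within either group. MT-ND1 and MT-ND2 are the 2 mRNA genes nearest the ribosomal RNA genes, where heavy-strand transcription begins. A link between their shares and this position was not tested. MT-ND3 made up 1.48% and 1.52% in the controls against 1.30% and 1.28% in the resistant libraries (ratio 0.858). MT-CO2 went from 10.6% and 10.4% to 9.89% and 9.60%, and MT-CYB from 5.98% and 6.32% to 5.92% and 5.39%, with MT-CYB separated by less than the spread within either group. The shares of the other 8 mRNAs overlapped between the groups, and that of MT-CO1 lay between 23.8% and 24.4% in all 4 libraries. The widest of the 52 Wilson intervals (95%) spans 0.098 percentage points. With 2 libraries against 2, the smallest p that an exact two-sided permutation test can give is 0.333, so no share was tested.

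**Figure D3:**
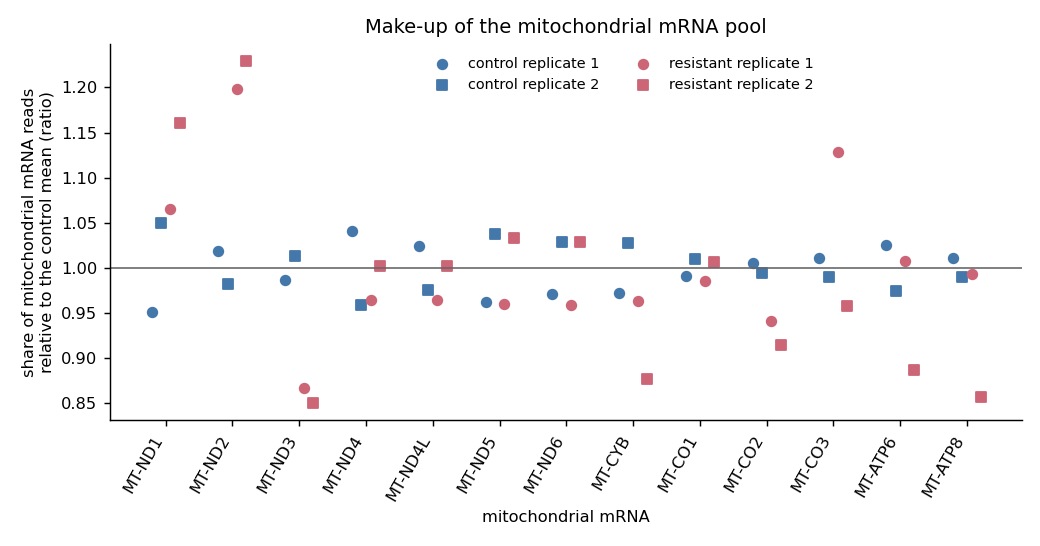
Share of each mitochondrial mRNA (x axis) in the reads of the 13 mRNAs, divided by the mean of the 2 controls (y axis, a ratio without unit), with 1 point per library. MT-ND1 and MT-ND2 are above both controls in both resistant libraries, and MT-ND3, MT-CO2 and MT-CYB are below.

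Nuclear DNA carries a near copy of part of the mitochondrial genome on chromosome 1, with 7 annotated pseudogenes between positions 629062 and 634922 (GRCh38). Their sequences are 97.6% to 98.9% identical to the mitochondrial genes, so reads can be assigned to either place or, where they fit both, be left out. The counts of MT-ND1, MT-ND2, MT-CO1, MT-CO2, MT-CO3, MT-ATP6 and MT-ATP8 are uncertain to that extent. Of the 7, the copy of MT-CO1, MTCO1P12 (ENSG00000237973.1), was lower in resistant cells and passed the test. It had 52.7 and 43.2 CPM in the controls against 13.6 and 13.3 in the resistant libraries, which is 3.55-fold lower (log2 -1.83 ± 0.19 SE, edgeR adjusted p = 0.0126). Without resistant replicate 2, the log2 fold change was -1.81 and the edgeR adjusted p = 0.0963. Over all genes tested, 0.513% were called lower.

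Set against its mitochondrial gene, MTCO1P12 took 0.456% (95% Wilson interval 0.442 to 0.471) and 0.430% (0.417 to 0.444) of the reads of copy and gene together in the controls. In the resistant libraries it took 0.139% (0.131 to 0.148) and 0.138% (0.130 to 0.146). The other 2 copies with more than a few reads did not move with it. MTND2P28 took 2.81% and 2.83% in the controls against 2.75% and 2.86% in the resistant libraries. MTATP6P1 took 10.2% and 10.2% in the controls against 9.93% and 10.1% in the resistant libraries. MTCO1P12 differs from MT-CO1 at 20 of 1542 aligned bases, and 10.6% of its bases lie in 2 other annotated genes. The 100 bases with the most differences are shown, because differing bases help decide which of the 2 genes a read was assigned to. They hold 4 of the 20 differing bases, and the others lie elsewhere in the gene. Capitals mark the 4 bases that differ.
MT-CO1, chrM:6200-6299: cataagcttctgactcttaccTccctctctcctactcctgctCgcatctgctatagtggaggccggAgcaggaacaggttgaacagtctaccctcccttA
MTCO1P12, chr1:631370-631469: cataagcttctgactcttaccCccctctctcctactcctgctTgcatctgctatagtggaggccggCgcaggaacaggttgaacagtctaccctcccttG
Adding the reads of all 7 copies to their genes left the mitochondrial median at -0.17. This median is the value of MT-ND4L, which has none of these copies, so it could hardly move. Reads left out because they fit both places were not restored, so the step does not settle the uncertainty of these counts.

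**Figure D4:**
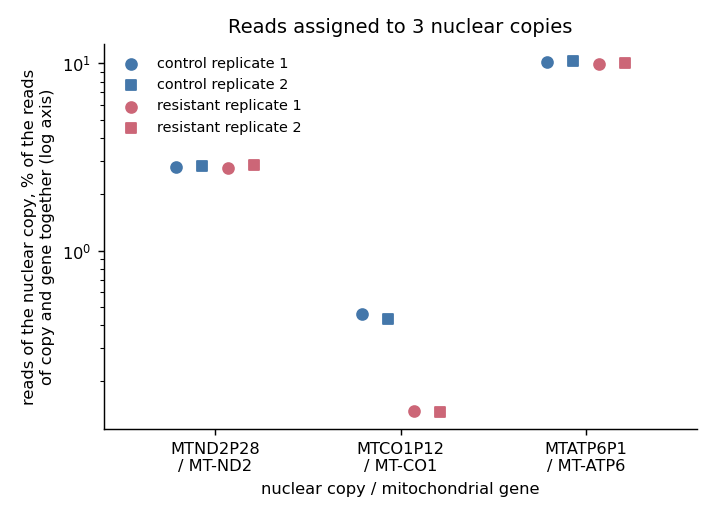
Reads of 3 nuclear copies as a percentage of the reads of the copy and its mitochondrial gene together (y axis, log scale), with 1 point per library. MTCO1P12 is at 0.430% to 0.456% in the controls against 0.138% to 0.139% in the resistant libraries, while MTND2P28 and MTATP6P1 stay within 2.75% to 2.86% and 9.93% to 10.2%.

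The 11 nuclear complex I genes had a median log2 fold change of -0.06, with 5 positive and 6 negative. NDUFB8, an accessory subunit of the membrane arm, had the highest value of these. It had 11.0 and 12.1 CPM in the controls against 13.9 and 14.6 in the resistant libraries (log2 0.31 ± 0.20, edgeR adjusted p = 0.584). The groups did not overlap, but 48.5% of its exonic bases lie in other genes and gave no count. NDUFA1, a small membrane-arm subunit, had the lowest value, with 89.9 and 59.5 CPM in the controls against 57.9 and 60.1 in the resistant libraries (log2 -0.34 ± 0.22, edgeR adjusted p = 0.574). Control replicate 1 stood alone there, and without it the log2 fold change was -0.01. Of the core subunits of the arm that takes electrons from NADH, none passed the test. The NADH-binding NDUFV1 had a log2 fold change of 0.00, the iron-sulfur subunits NDUFS1 and NDUFV2 had 0.10 and -0.23, and NDUFS3 had -0.33. The accessory subunits NDUFA8, NDUFA9, NDUFB3, NDUFB5 and NDUFB10 lay between -0.09 and 0.06. NDUFV2 rests on 219 to 326 counts per library, the fewest of the 46 genes, and its 1 named pseudogene held 38.0% and 17.5% as many reads in the controls against 26.0% and 18.8% in the resistant libraries.

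Complex II, succinate dehydrogenase, has 4 subunits, all nuclear, and also works in the citric acid cycle. SDHA, its flavoprotein, had 13.5 and 12.1 CPM in the controls against 10.1 and 8.89 in the resistant libraries (log2 -0.43 ± 0.21, edgeR adjusted p = 0.452). Both resistant libraries were below both controls, but the counts of SDHA are uncertain: its 6 named pseudogenes held 57.9% to 73.0% as many reads as the gene itself. SDHC, a membrane anchor, had 100.4 and 91.5 CPM in the controls against 97.9 and 113 in the resistant libraries (log2 0.13 ± 0.17). The iron-sulfur subunit SDHB and the second anchor SDHD had log2 fold changes of 0.11 and 0.04, and the median of the complex was 0.08.

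UQCRC1 stood apart from the other 3 nuclear genes of complex III. This core subunit (ENSG00000010256.11, chromosome 3, 48599002 to 48610976) had 244 and 229 CPM in the controls against 102 and 153 in the resistant libraries, a mean of 236 ± 10.8 against 128 ± 35.9 (SD, n = 2 per group). It was 1.85-fold lower (log2 -0.89 ± 0.22 SE, edgeR adjusted p = 0.119), and DESeq2 gave it an adjusted p of 0.0132. With 1 library left out, its log2 fold change ranged from -1.21 without resistant replicate 2 to -0.62 without resistant replicate 1, and it passed edgeR's threshold without either control (adjusted p = 0.0443 when replicate 1 of the controls was dropped, 0.0228 for replicate 2). Those fits hold 1 control, which is assumed to vary like the resistant pair, and they call 829 and 2166 of all genes in place of 272. None of its exonic bases is shared with another gene. UQCRC2, its partner in the core, had 155 and 129 CPM in the controls against 144 and 166 in the resistant libraries (log2 0.12 ± 0.18). The small subunits UQCRB and UQCRQ, at log2 fold changes of 0.03 and 0.04, overlapped between the groups as well.

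CYCS, the gene of cytochrome c, which carries electrons from complex III to complex IV, had the highest fold change of the 46. It had 109 and 118 CPM in the controls against 157 and 138 in the resistant libraries, so that the groups did not overlap. The difference, 1.30-fold (log2 0.38 ± 0.17, edgeR adjusted p = 0.376), did not pass. The 42 pseudogenes named after it together held 4.01% to 4.71% as many reads. CYCS is a known target of the transcription factor NRF1, and the stretch from 199 to 80 bases before its RefSeq start (GRCh38.p14, minus strand) holds the 8 letters GCATGCGC, a part of the NRF1 motif, in capitals.
CYCS, chr7:25125340-25125459: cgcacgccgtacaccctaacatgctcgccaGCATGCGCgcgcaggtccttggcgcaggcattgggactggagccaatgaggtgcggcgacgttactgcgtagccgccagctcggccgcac
Promoters of 300 bases were at hand for 26 of the 33 nuclear members, and GCATGCGC or its reverse complement was found in 6 of these (ATP5F1C, COX5B, CYCS, NDUFA8, SDHB and SDHD), or 23.1%, and in 3.05% of all 35116 promoters. The ETS motif CCGGAAGT, searched on both strands, was found in 5 of the 26 (ATP5F1A, COX5B, NDUFS1, SDHD and UQCRQ) and in 4.14% of all promoters. These strings were kept from 5 searched after their counts in the members had been seen, so the shares are a description. Of the other 3, the palindrome of 10 letters known for NRF1 was found in 3 of the 26 and 1.24% of all promoters, TGCGCATGC in 3 and 1.56%, and CCGGAA in 15 and 17.2%. Members with GCATGCGC had log2 fold changes from -0.24 to 0.38 (median 0.05) and the 20 without it from -0.89 to 0.31 (median -0.07).

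The 7 nuclear complex IV genes had a median log2 fold change of -0.04. NDUFA4, named for complex I but known as a subunit of complex IV, is counted with them (log2 -0.10). COX5A, which encodes a small subunit, had 124 and 121 CPM in the controls against 125 and 141 in the resistant libraries (log2 0.12 ± 0.16). The resistant libraries were above the controls by less than the gap between the resistant libraries themselves. COX7C had 294 and 211 CPM in the controls against 180 and 209 in the resistant libraries (log2 -0.38 ± 0.21, edgeR adjusted p = 0.506), where resistant replicate 2 was close to control replicate 2. COX4I1, which encodes the regulatory subunit that binds ATP, had a log2 fold change of 0.08. COX5B, COX6C and COX7B lay between -0.11 and -0.03.

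All 6 nuclear ATP synthase genes had negative fold changes, with a median log2 value of -0.18, and none passed. ATP5F1A, the alpha subunit of the catalytic head, had 439 and 347 CPM in the controls against 285 and 340 in the resistant libraries (log2 -0.33 ± 0.20, edgeR adjusted p = 0.537). Each resistant library was below each control, but resistant replicate 2 and control replicate 2 nearly met. ATP5F1B, the catalytic beta subunit and the nuclear member with the most reads, had 1047 and 839 CPM in the controls against 791 and 912 in the resistant libraries, and the groups overlapped (log2 -0.15). The central stalk gene ATP5F1C had a log2 fold change of -0.24 with groups that did not overlap, and the peripheral stalk gene ATP5PB one of -0.11. ATP5MC3 and ATP5MC1, which encode the same mature c-ring protein, had -0.21 and -0.01. ATP5MC1 had 52.5 and 38.1 CPM in the controls against 46.2 and 43.7 in the resistant libraries, between the controls. With control replicate 1 left out the values of ATP5F1B, ATP5PB, ATP5MC1 and ATP5MC3 were positive, and control replicate 1 was the highest library for each of the 6 genes.

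The balance of the genomes did not separate the groups. Reads of the 13 mitochondrial mRNAs outnumbered those of the 33 nuclear members 9.96-fold and 10.3-fold in the controls against 10.8-fold and 9.16-fold in the resistant libraries. On the log2 scale the ratio was 0.03 lower in resistant cells, with a spread within groups of 0.12 (SD, 2 libraries per group). Within complex I the ratio of mitochondrial to nuclear reads was 30.9 and 34.0 in the controls against 33.8 and 29 in the resistant libraries. Within complex IV it was 18.5, 19.2, 19.2 and 16.4 in the same order. Within complex III it was 4.67, 4.78, 5.58 and 3.98, and within ATP synthase 1.36, 1.38, 1.54 and 1.15. Resistant replicate 2 had the lowest ratio in each complex, and the groups overlapped in all 4. In complex III, however, UQCRC1 had the most reads of the nuclear genes in both controls. It was lower in both resistant libraries (244 and 229 CPM in the controls against 102 and 153), as was MT-CYB. The complex III ratio therefore sets 1 lower level against another, and a ratio without UQCRC1 was not computed.

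Further nuclear genes of these complexes gave the same picture in number. They were 26 of complex I, 5 of complex III, 4 of complex IV and 12 of ATP synthase, counting its inhibitor gene ATP5IF1. None passed edgeR over all genes tested, and the list medians were 0.02, -0.12, 0.10 and -0.03. By unadjusted edgeR p under 0.05 and by DESeq2, 1 of these 47 genes was picked out, the complex I gene NDUFB2. It had 36.3 and 29.3 CPM in the controls against 51.4 and 62.4 in the resistant libraries (log2 0.79 ± 0.19, edgeR adjusted p = 0.112, DESeq2 adjusted p = 0.0172), although 35.9% of its exonic bases are shared with other genes. The lowest complex I value was -0.19 for NDUFS5. UQCR10 (-0.26) and UQCRH (0.09) were the ends of the complex III list, COX8A (-0.27) and COX6A1 (0.21) of complex IV, and ATP5PD (-0.33) and ATP5MK (0.23) of ATP synthase.

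Of 47 assembly factors none passed edgeR or DESeq2, with a list median of -0.01. The 1 gene at an unadjusted p under 0.05 was NDUFAF3, an assembly factor of complex I, with 68.7 and 49.1 CPM in the controls against 29.7 and 38.8 in the resistant libraries (log2 -0.78 ± 0.23, edgeR adjusted p = 0.166). The highest was NDUFAF8, at 0.39. The 11 coenzyme Q synthesis genes had a median of -0.12, with none called by edgeR, by DESeq2 or at an unadjusted p under 0.05, from COQ3 (-0.64) to COQ9 (0.20). In the citric acid cycle, which feeds the chain, none of 14 genes passed edgeR (median -0.09), and SUCLG2, a subunit of succinyl-CoA ligase, was the 1 gene with an unadjusted p under 0.05 and a DESeq2 call. It had 263 and 188 CPM in the controls against 66.9 and 113 in the resistant libraries (log2 -1.33 ± 0.28, edgeR adjusted p = 0.0795). The highest of the cycle was IDH3A, at 0.13.

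Among 37 genes that maintain, transcribe and process mitochondrial DNA and RNA, 1 rose, where 0.577% of all genes did (list median 0.06). FASTK, a member of a family of mitochondrial RNA regulators, had 70.6 and 65.1 CPM in the controls against 131 and 138 in the resistant libraries, 1.99-fold more (log2 0.99 ± 0.16, edgeR adjusted p = 0.0415). Its adjusted p was 0.199 without resistant replicate 2, 0.0804 without resistant replicate 1 and 0.0933 with the replicate number as a block. The mitochondrial RNA polymerase gene POLRMT had 119 and 113 CPM in the controls against 142 and 185 in the resistant libraries (log2 0.49 ± 0.19, edgeR adjusted p = 0.297). The single-strand DNA binding protein gene SSBP1 stood at 0.86 on the log2 scale (edgeR adjusted p = 0.130, DESeq2 adjusted p = 0.0126). TFAM, which packages mitochondrial DNA and starts its transcription, had 62.2, 53.4, 56.4 and 62.4 CPM in control replicates 1 and 2 and resistant replicates 1 and 2 (log2 0.04). The helicase gene TWNK had a log2 fold change of 0.28, the polymerase gene POLG -0.11, and LRPPRC and SLIRP, whose proteins together stabilise mitochondrial mRNAs, -0.09 and 0.02. The lowest of the list was MTERF1, at -0.28.

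Of 81 mitochondrial ribosomal protein genes, 80 were tested and MRPS33 rose, from 30.4 and 36.6 CPM in the controls to 76.0 and 84.5 in the resistant libraries (2.39-fold, log2 1.26 ± 0.18, edgeR adjusted p = 0.0312). Its adjusted p was 0.164 without resistant replicate 2 and 0.0577 with the replicate block. With it, 3 of the 80 had an unadjusted edgeR p under 0.05, the others being MRPL24 (log2 0.54, edgeR adjusted p = 0.267) and MRPS27. Over all genes tested, 13.5% had such an unadjusted p, and 0.577% were called higher. The list median was -0.03, and the lowest with at least 5 CPM was MRPS27, at -0.60 (edgeR adjusted p = 0.236). None of 8 regulators of mitochondrial biogenesis passed edgeR (median 0.14). The 2 with an unadjusted p under 0.05, which DESeq2 also called, were the related coactivator genes PPARGC1A and PPARGC1B. PPARGC1A had 1.09 and 2.55 CPM in the controls against 7.84 and 5.47 in the resistant libraries, 3.64-fold more (log2 1.86 ± 0.43, edgeR adjusted p = 0.0978, DESeq2 adjusted p = 2.49e-04). Its log2 fold change was 1.38 when control replicate 1 was dropped and 2.61 when control replicate 2 was, and edgeR adjusted p-values with 1 library left out ran from 6.81e-04 to 0.238. PPARGC1B had 10.9 and 15.6 CPM in the controls against 22.2 and 25.8 in the resistant libraries (log2 0.86 ± 0.23, edgeR adjusted p = 0.144). The transcription factor genes through which these coactivators are known to act were NRF1 (log2 -0.07), GABPA (0.02) and ESRRA (0.14), and the lowest was YY1 (-0.09).

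Several subunits have alternative versions that are normally confined to other tissues or to low oxygen. COX7B2, a testis version of COX7B, had 294 and 212 counts (4.11 and 2.45 CPM) in the controls against no count in either resistant library. Against a floor of 3 counts per library it was at least 77.7-fold lower (edgeR adjusted p = 0.0120). The usual gene COX7B, by comparison, had 100.2 and 69.2 CPM in the controls against 77.1 and 87.3 in the resistant libraries. NDUFA4L2, a hypoxia-linked relative of NDUFA4, had 4.83 and 12.1 CPM in the controls against 13.1 and 15.2 in the resistant libraries (log2 0.74 ± 0.39, edgeR adjusted p = 0.484), and its log2 fold change ran from 0.23 to 1.55 with 1 library left out. Of the other 5, COX7A1 and COX6B2 were tested and did not pass, and COX4I2, COX6A2 and COX8C were too low to test, with at most 16 counts in a library.

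The nuclear genes were also set out by position. Many genes in 2 stretches, chromosome 3 from 0 to 100 Mb and chromosome 7 from 140 to 160 Mb, were already known to differ between these lines in earlier results of the same data, so their position is no independent finding. The median log2 fold change of all tested genes was -0.58 in the first (655 genes), 0.96 in the second (168 genes) and 0.01 elsewhere. UQCRC1 is the 1 nuclear member in either stretch. Of the 277 tested nuclear members and genes of the 10 lists of mitochondrial genes, 4 lie in the chromosome 3 stretch: UQCRC1, NDUFAF3, SUCLG2 and MRPS25 (log2 -0.89, -0.78, -1.33 and -0.33). Another 4 lie in the chromosome 7 stretch: MRPS33, FASTK, SSBP1 and NDUFB2 (1.26, 0.99, 0.86 and 0.79). Of these, FASTK and MRPS33 were called, as were 17.9% of all 168 tested genes of that stretch. The 269 genes elsewhere ran from -0.74 for MRPS24 to 1.86 for PPARGC1A, with a median of -0.01. None of them was called by edgeR, where 0.932% of all tested genes outside the 2 stretches were. COX7B2, on neither stretch, is in none of the 10 lists.

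**Figure D5:**
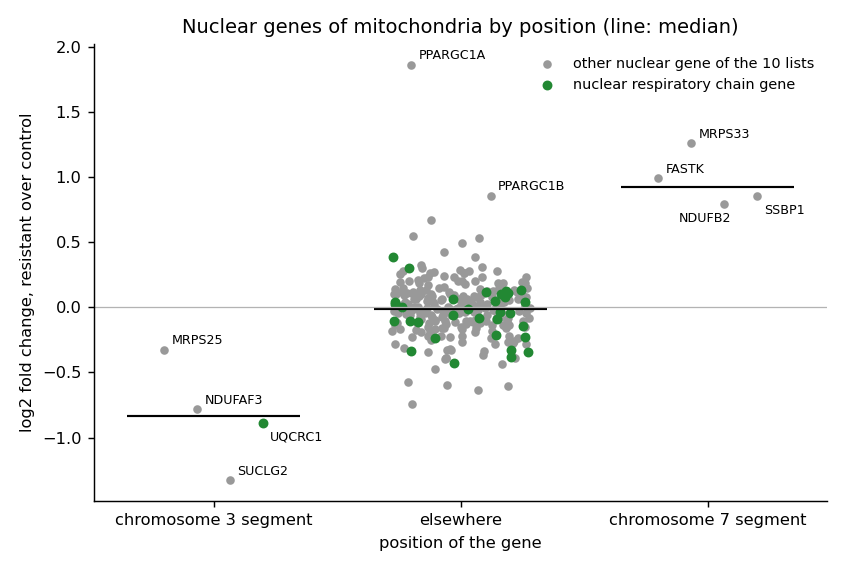
Log2 fold changes (y axis, resistant over control) of 277 nuclear genes of mitochondrial function by position (x axis), with 1 point per gene, nuclear respiratory chain genes in green and a line at each median. The 4 genes of the chromosome 3 stretch lie below 0, the 4 of the chromosome 7 stretch between 0.79 and 1.26, and the other 269 between -0.74 and 1.86 (PPARGC1A), around a median of -0.01.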

How the data were processed

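PolyA-selected, strand-specific, paired-end libraries (labels' protocols), 2 per group, were analysed. Each deposited file gives unnormalized counts by gene. For the resistant cells, file names and labels carry different library numbers. Files were assigned by their sample record, and every resistant value rests on that assignment. Per the file headers, the authors made them with featureCounts 2.0.0 on duplicate-marked alignments against GENCODE release 42, with no other options. By that program's defaults, strand was ignored, mates were counted singly, and reads fitting several places or several genes were left out. STAR, DESeq2 and GRCh38 are named in the submitters' processing notes. A deposited table of log fold changes names no comparison and was not used.

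All genes passing edgeR's filterByExpr entered 1 model of the 2 groups after TMM scaling. The test was edgeR's quasi-likelihood method, version 4.0.16 under R 4.3.3 with limma 3.58.1. Its p-values are two-sided and were adjusted by Benjamini-Hochberg across 24961 genes, with a threshold of 0.05. DESeq2 1.42.0 was an alternative. The edgeR step was tested on simulated counts. CPM are TMM-normalised, SE is the log2 fold change over the root of its F statistic, and overlaps between genes were computed from the exons in the count files. Of 62649 identifiers 62625 matched a symbol. A count of 3 equals 0.0346 to 0.0422 CPM. Promoters come from RefSeq (GRCh38.p14).

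Members and lists were chosen with earlier results of these data known. All 46 members are named, with the mitochondrial mRNAs, any called nuclear member and the highest and lowest nuclear member of each complex in every library. In each list the text names called genes, the highest and lowest with a mean of at least 5 CPM, and 13 fixed genes. Genes with an unadjusted p under 0.05 or a DESeq2 call, MRPS25, and the low alternative subunits were named after their values were seen. For the melanoma and neural crest markers, genes with an unadjusted p under 0.05 are counted but not listed. Alternatives were other scalings, no filter, DESeq2, a replicate block, halving control replicate 1, leaving out each library, adding nuclear copies and leaving out overlapping mitochondrial genes.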

Additional observations from a re-analysis of the deposited data

How the results depend on the processing

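The count of members called, 0 of 46 in the edgeR fit, became 1 (UQCRC1) without a filter on low counts, with DESeq2, and without either control. With 1 library left out it ranged from 0 to 1. Leaving out 1 library gave a median log2 fold change of the mitochondrial mRNAs between -0.31 and -0.058, and it stayed between -0.17 and -0.14 under the other alternatives. Likewise the nuclear median lay between -0.21 and 0.13. The log2 ratio of mitochondrial to nuclear reads, resistant minus control, lay between -0.15 and 0.09. The SDs of replicates were 0.17 and 0.12. With 2 libraries per group, that SD itself bounds how far leaving out 1 can move the ratio, so no stability is read from these ranges. Of the 46 members, 22 changed sign under at least 1 alternative.

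No pairing by replicate number was evident: the deviations of same-numbered libraries correlated at 0.0022 over 10089 genes. With 2 libraries per group, this cannot exclude a pairing that touches few genes. With the replicate block the number of members called was 0 and the medians were -0.16 and -0.03. Over all genes 64 were called with the block, against 272 in the main fit, 1866 without a filter, 1210 with DESeq2, and 829, 2166, 186 and 16 without control replicate 1, control replicate 2, resistant replicate 1 and resistant replicate 2. The cause was not tested. With 2 libraries per group, the standard errors of the members (0.16 to 0.29 on the log2 scale) exceed the change of most of them.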
